A study of Drosophila melanogaster with 9 samples.

Results

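The digestive enzyme genes alphaTry, Mal-A1, Mal-A6, Amy-p, Amy-d, LysB, LysD and LysE are 8 of the 7539 genes in the RNA-seq table of fly testes. They were chosen by their symbols with their mutant and control values in these same libraries already known. The difference between genotypes is therefore given for them as a description, with no test. Testes were taken from adult Drosophila melanogaster, 3 to 5 days old and kept at 25 °C, in a line labelled Dm310s mutant, which lacks the miR-310 microRNA cluster, and in a line labelled Control. Both lines came from one stock with a P-element insertion, EP(2)2587, whose insertion is named P(3)l(2)05510EP2587, so the control shares that origin. The labels name no tissue-specific driver and give neither the number of animals in a library nor whether each library was dissected separately, so p-values reflect the spread among these libraries, which may be technical. There were 2 libraries per line, and the authors deposited a log2(RPKM) value for each gene and library. RPKM stands for reads scaled to gene length and library size. The sorted values of the libraries nearly match, the pattern quantile normalization leaves, so the deposited values behave like ranks. The hairpins of the cluster are not rows of this table and could not serve as a check of the label.

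In flies these enzymes are made chiefly by the midgut and secreted into its lumen. Trypsins cut dietary protein, amylases break starch into maltose and short glucose chains, and maltases release glucose from those. The fly lysozymes of this family cleave bacterial cell walls in the gut. Several lie in tandem gene families on the arms 2R (alphaTry, Mal-A1, Mal-A6, Amy-p and Amy-d) and 3L (LysB, LysD and LysE), in the RefSeq Release 6 annotation. Amy-p and Amy-d are near-identical copies, as are the lysozymes among themselves, so the division of reads within each family is uncertain.

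All 4 libraries had the expression of testis: 25 of 26 listed testis markers were in the table, and their summed RPKM was 6224 and 6034 in control replicates 1 and 2 and 6251 and 6301 in mutant replicates 1 and 2. None of these 25 was called in limma, which called 1.5% of all genes. At an unadjusted p under 0.05 were 7 of the 25 (1331 of all 7539 genes). The markers tomb, Mst98Cb and janB had the smallest p, with differences of -0.42, 0.27 and -0.67 on the log2 scale and limma adjusted p of 0.0898, 0.112 and 0.147. The table holds no value below 1.00 in any library, so a gene that was lower than this in even 1 library is not analysed here.

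The protease gene alphaTry, which encodes a trypsin, had the largest difference of all genes in the table. Its log2(RPKM) was 1.41 and 2.02 in control replicates 1 and 2, and 5.95 and 6.66 in mutant replicates 1 and 2. On the linear scale these are 2.66 and 4.06 RPKM against 62.0 and 101 RPKM. The mutant mean of 6.31 ± 0.50 (SD, n = 2) stood 4.59 above the control mean of 1.72 ± 0.43 (SD, n = 2), a ratio of 24.1. Both mutant libraries lay far above both control libraries: the lower mutant value exceeded the higher control value by 3.93, whereas libraries of one genotype differed by 0.61 (control) and 0.71 (mutant). In rank, alphaTry moved from percentile 6.34 and 22.0 among the genes of the control libraries to percentile 89.9 and 94.5 in the mutant libraries.

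**Figure D1:**
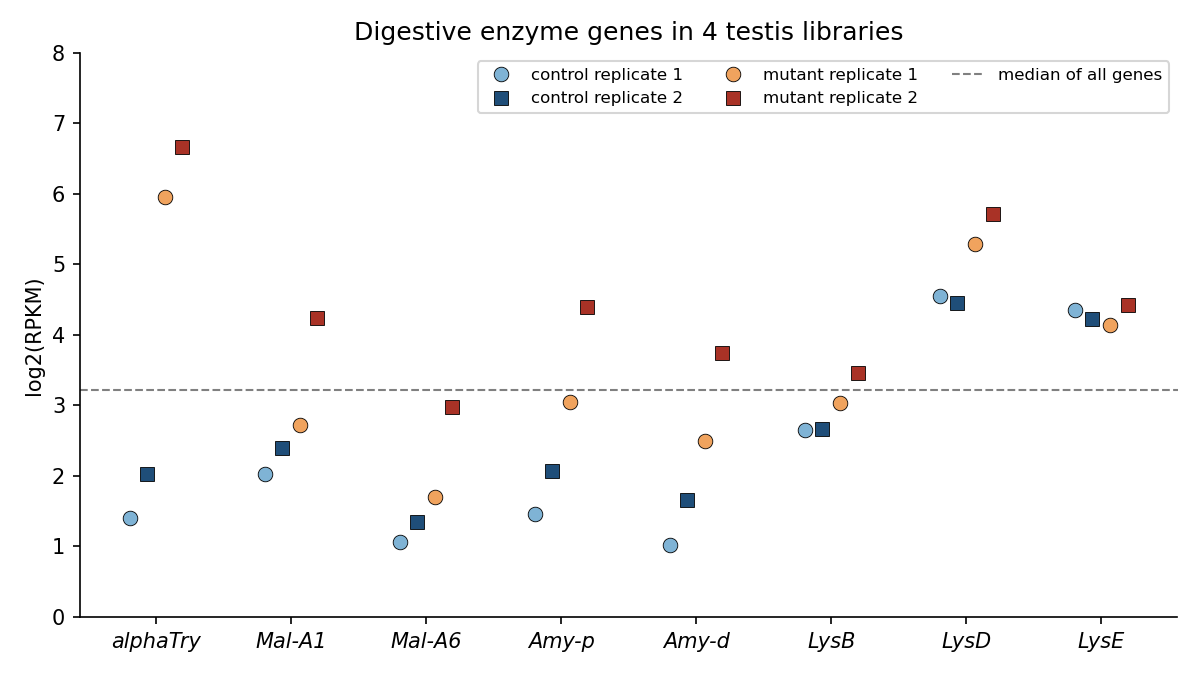
The log2(RPKM) of each of the 8 digestive enzyme genes (horizontal axis) in each of the 4 testis libraries; points are single libraries, and the dashed line is the median of all genes. For alphaTry the mutant libraries stand at 5.95 and 6.66 and the control libraries at 1.41 and 2.02, while the LysE points overlap between genotypes.

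Both amylase genes were higher in both mutant libraries. Amy-p stood at a log2(RPKM) of 1.46 and 2.06 in control replicates 1 and 2, and at 3.05 and 4.40 in mutant replicates 1 and 2, so the means were 1.76 ± 0.43 and 3.72 ± 0.95 (SD, n = 2 each) and differed by 1.96. Amy-d stood at 1.02 and 1.65 in the controls and at 2.50 and 3.74 in the mutants, with means of 1.33 ± 0.45 and 3.12 ± 0.88 (SD, n = 2 each) and a difference of 1.79. The genotypes did not overlap for either gene, but mutant replicate 2 lay well above mutant replicate 1. In control replicate 1 Amy-d was near the lowest value the table holds, with 4 genes below it, so its control level sits close to the limit of what the table can show. The proximal and distal copies kept nearly one ratio in every library: Amy-p exceeded Amy-d by 0.45 and 0.41 in control and by 0.55 and 0.66 in mutant libraries.

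The maltase genes Mal-A1 and Mal-A6, which encode alpha-glucosidases, were highest in mutant replicate 2. Mal-A1 stood at a log2(RPKM) of 2.02 and 2.40 in control replicates 1 and 2 and at 2.73 and 4.24 in mutant replicates 1 and 2, with means of 2.21 ± 0.26 and 3.48 ± 1.07 (SD, n = 2 each). Mal-A6 stood at 1.06 and 1.35 in the controls and at 1.70 and 2.98 in the mutants, with means of 1.20 ± 0.20 and 2.34 ± 0.90 (SD, n = 2 each). The differences of the means were 1.28 and 1.13. The genotypes did not overlap, yet mutant replicate 1 exceeded control replicate 2 by only 0.33 for Mal-A1 and 0.35 for Mal-A6. Mutant replicate 2 exceeded mutant replicate 1 by 1.51 and 1.28, so for the maltases the gap within the mutant was wider than the gap between genotypes. Mal-A1 exceeded Mal-A6 by 0.96 to 1.26 in all 4 libraries.

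The lysozymes divided into members that were higher in the mutant libraries and one that was not. LysD stood at a log2(RPKM) of 4.55 and 4.46 in control replicates 1 and 2 and at 5.29 and 5.71 in mutant replicates 1 and 2, so the mean went from 4.51 ± 0.07 to 5.50 ± 0.30 (SD, n = 2 each), a ratio of 1.99. LysB stood at 2.65 and 2.66 in the controls and at 3.04 and 3.46 in the mutants, with means of 2.65 ± 0.01 and 3.25 ± 0.30 (SD, n = 2 each). LysE stood at 4.36 and 4.23 in the controls and at 4.15 and 4.43 in the mutants, with means of 4.29 ± 0.09 and 4.29 ± 0.20 (SD, n = 2 each). The genotypes were apart for LysD and LysB and overlapped for LysE, whose lowest and highest values were both in mutant libraries. LysD and LysE, which neighbour each other in RefSeq order, had similar levels in control libraries (LysD above LysE by 0.20 and 0.23) and parted in the mutant libraries (by 1.14 and 1.29). Because the lysozyme copies are so alike, the authors' read counting could have moved reads among them, and this was not tested.

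Across the 8 genes, 7 had both mutant libraries above both control libraries, as did 26.2% of all genes. The limma fit of all genes included the 8 and called 2 of them higher in the mutant at an adjusted p under 0.05, as it did 0.544% of all genes. Since the genes were picked with this contrast known, these counts carry no further reading. The median difference was 1.20 over the 8 genes and 0.0045 over all genes. Relative to the control mean, the median of the 8 genes was 0.65 for mutant replicate 1 and 1.90 for mutant replicate 2. None of the 8 carries the table's mark for a predicted target of an arm of miR-313, which 486 genes carry for the 3p and 241 for the 5p arm.

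The libraries of one genotype were not alike for these genes. Mutant replicate 2 was above mutant replicate 1 for 8 of 8, with gaps from 0.28 (LysE) to 1.51 (Mal-A1) and a median of 0.97, whereas 41.8% of all genes were higher in mutant replicate 2 and the median gap of all genes was -0.03. Control replicate 2 was above control replicate 1 for 6 of 8, with a median of 0.33 against 0.0097 for all genes. The exceptions were LysD and LysE, at -0.10 and -0.13. In 6 of the 8 genes the values ascended from control replicate 1 to control replicate 2, mutant replicate 1 and mutant replicate 2. This order was held by 5.53% of all genes. It includes both mutant libraries above both control libraries, which 26.2% of all genes had. Since the genes were picked with these values known, the count carries no further reading. The sum of the 8 genes was 63.8 and 66.2 RPKM in control replicates 1 and 2, and 151 and 247 RPKM in mutant replicates 1 and 2.

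**Figure D2:**
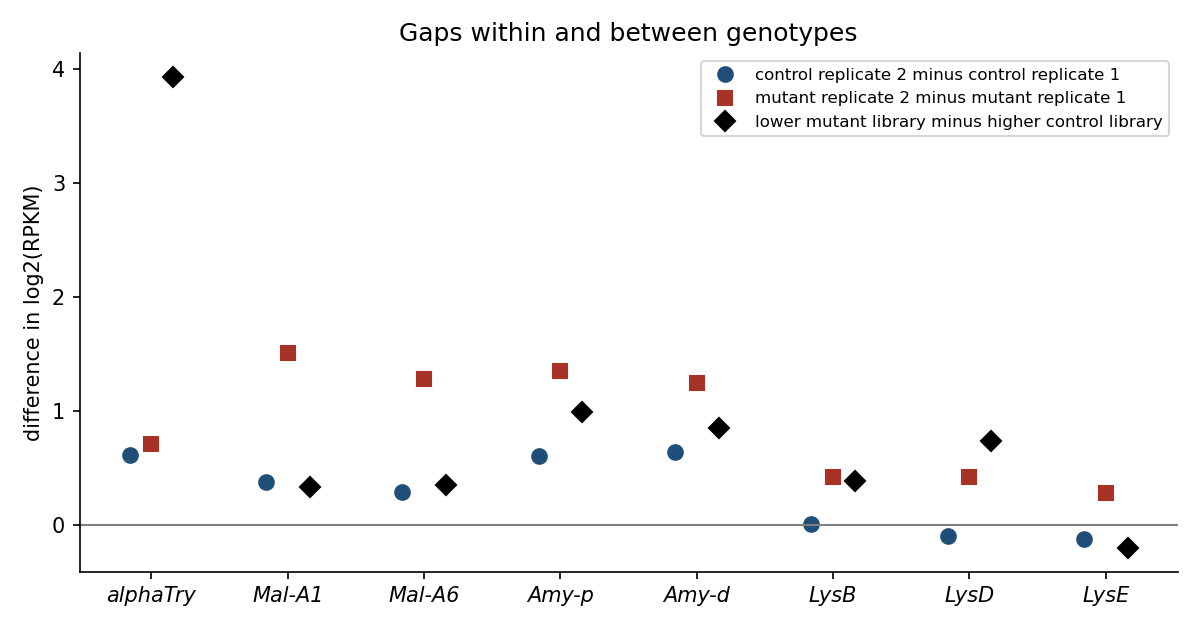
Differences in log2(RPKM) for each of the 8 genes: between the 2 control libraries (circles), between the 2 mutant libraries (squares), and between the lower mutant and the higher control library (diamonds). Only for alphaTry and LysD is the diamond above both other symbols; for Mal-A1 the mutant libraries differ by 1.51 and the genotypes are 0.33 apart.

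The make-up of the enzyme transcripts differed between genotypes as well as their sum. RPKM is scaled per length, so levels of different genes can be set side by side. Because the deposited values behave like ranks, sums and shares of RPKM are a description only. In control libraries alphaTry and Amy-p were at nearly the same level, with alphaTry lower by 0.05 and 0.04 on the log2 scale. In mutant replicates 1 and 2 alphaTry exceeded Amy-p by 2.91 and 2.26. The share of alphaTry in the summed RPKM of the 8 genes was 4.16% and 6.13% in control replicates 1 and 2, and 41.1% and 40.9% in mutant replicates 1 and 2. The mutant libraries thus had nearly one alphaTry share although their sums differed. In the controls the lysozymes LysD and LysE were the most abundant of the 8.

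**Figure D3:**
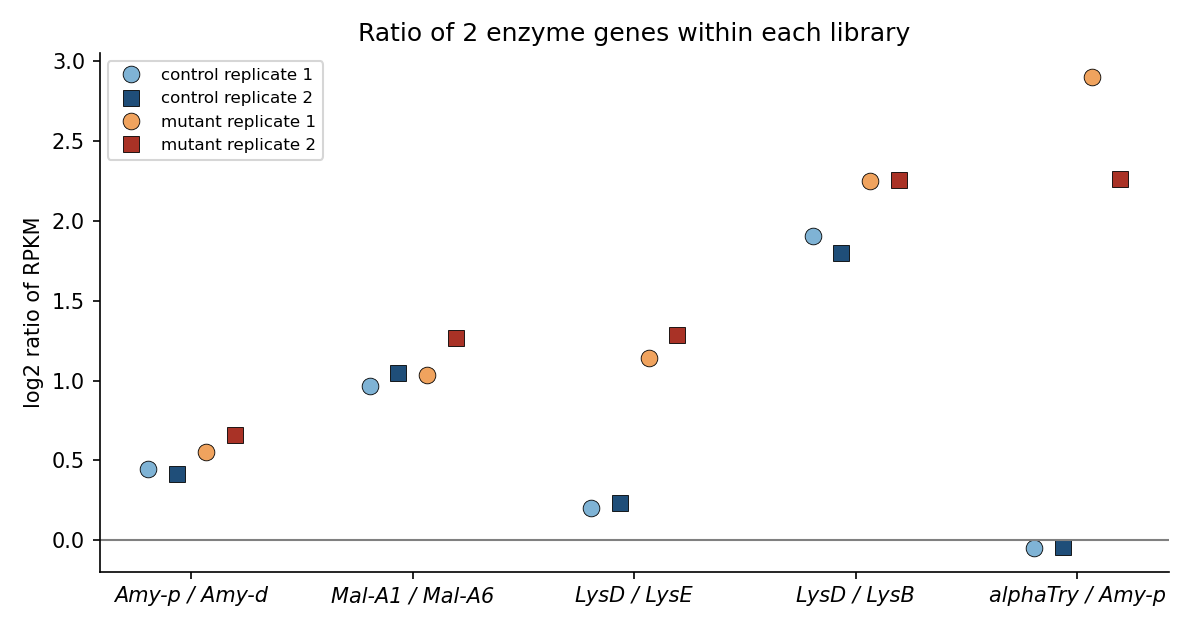
The log2 ratio of RPKM of 2 enzyme genes within each of the 4 libraries, for 5 pairs; points are single libraries. The Amy-p to Amy-d ratio stays between 0.41 and 0.66, while the alphaTry to Amy-p ratio is near 0 in both control libraries and at 2.91 and 2.26 in the mutant libraries.

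The genes of the table nearest to the enzymes on the chromosome were not called in limma, which called 1.5% of all genes. Some are not adjacent: the genes directly beside alphaTry (thetaTry and epsilonTry), Mal-A1 (Cyp4e1 and Mal-A2) and Mal-A6 (Mal-A5 and Mal-A7) are not in the table. The same holds for CG15611 beside Amy-p, LysC beside LysB and LysD, and LysP beside LysE. The serine protease inhibitor gene Spn53F lies between Amy-p and Amy-d in RefSeq order and stood at a log2(RPKM) of 1.08 and 1.16 in control and 1.17 and 1.51 in mutant libraries, a difference of 0.22. The nearest genes of the table on the outer sides were GstS1, a glutathione S-transferase gene, at 0.03 and CG15605 at 0.02. Of the nearest measured genes around alphaTry, CG7745 differed by 0.02 and CG13202 by -0.13. Around the maltases, the cytochrome P450 gene Cyp4ad1 differed by -0.02 and the noncoding RNA CR44279 by -0.49. Around the lysozymes, CG9119 differed by 0.08 and the kinesin gene Klp61F by 0.17. Adjusted p of these 9 neighbours lay between 0.0656 (CR44279, lower in both mutant libraries) and 0.952 in limma.

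Other genes listed as digestive were mostly outside the table, and those inside it were not called. The list goes by enzyme class, and whether its measured members are gut genes was not tested. Their result is therefore no contrast to the enzyme genes above. Of 113 listed serine proteases, carboxypeptidases, carbohydrate hydrolases, further lysozymes and lipases, 10 were measured. In limma 0 of these 10 differed at an adjusted p under 0.05 in either direction and 0 had an unadjusted p under 0.05, whereas 1.5% of all genes were called. Their median difference was 0.04, with a range from -0.16 to 0.65. The remaining trypsins of the alphaTry family (betaTry, gammaTry and others), Mal-A2 to Mal-A5, Mal-A7 and Mal-A8, Amyrel and LysP are not in the table, so their levels in mutant libraries are not known here.

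CG17571 was the only gene measured among the listed digestive serine proteases. It stood at a log2(RPKM) of 1.33 and 1.69 in control replicates 1 and 2 and at 1.77 and 2.56 in mutant replicates 1 and 2. Its libraries had the order seen for alphaTry, the amylases, the maltases and LysB, but the difference of 0.65 (SE 0.28) did not pass (limma adjusted p = 0.307). The lysosomal mannosidase gene LManII stood at 2.28 and 2.08 in control and 2.06 and 2.38 in mutant libraries, a difference of 0.04 (SE 0.14, limma adjusted p = 0.921). The lipase genes CG17097, CG31872 and CG18284 were abundant in these testes, with control means of 8.15 ± 0.14, 7.66 ± 0.05 and 6.97 ± 0.005 (SD, n = 2 each), and their differences were -0.03, 0.05 and 0.16. A further lipase gene, CG7367, had a control mean of 2.59 ± 0.03 (SD, n = 2) and a difference of -0.04. For CG17097, CG31872 and CG18284 mutant replicate 2 exceeded mutant replicate 1 by 0.38, 0.36 and 0.32, and for CG7367 the gap was -0.11. The median of this gap was 0.32 for the listed accessory gland markers. The tissue source of the lipase transcripts was not tested. Among carboxypeptidase genes, CG8564, CG8560, CG8945 and CG2915 differed by 0.10, -0.16, 0.13 and -0.04. Adjusted p for these lipases and carboxypeptidases lay between 0.296 and 0.944 in limma.

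Markers of the midgut itself showed no called difference. Of 20 listed markers, 3 were measured, and 0 were called in limma, which called 1.5% of all genes. At an unadjusted p under 0.05 was 1 of the 3, cad, as were 1331 of all 7539 genes. The midgut gene mex1 stood at a log2(RPKM) of 2.38 and 2.29 in control replicates 1 and 2 and at 2.45 and 2.24 in mutant replicates 1 and 2, a difference of 0.01 (SE 0.10, limma adjusted p = 0.971). The homeobox gene cad stood at 1.39 and 1.55 in control replicates 1 and 2 and at 1.77 and 1.76 in mutant replicates 1 and 2. Its difference was 0.30 (SE 0.10, limma adjusted p = 0.221). Peritrophin-15b, which encodes a chitin-binding protein of the gut lining, differed by -0.08 (SE 0.21, limma adjusted p = 0.873). The summed RPKM of the 3 markers was 11.3 and 11.8 in control and 11.7 and 12.5 in mutant libraries. The other 17 markers, among them Npc1b, GATAe, Myo31DF and the enteroendocrine gene Tk, are not in the table, nor are 4 of 5 gut immune effectors; the fifth, the catalase gene Irc, differed by -0.10 (SE 0.10, limma adjusted p = 0.678). The 3 listed Malpighian tubule markers are not in the table either. What part gut tissue had in the enzyme values was not tested. In these bulk libraries a change in the number of cells of a type and a change in RNA per cell cannot be told apart.

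**Figure D4:**
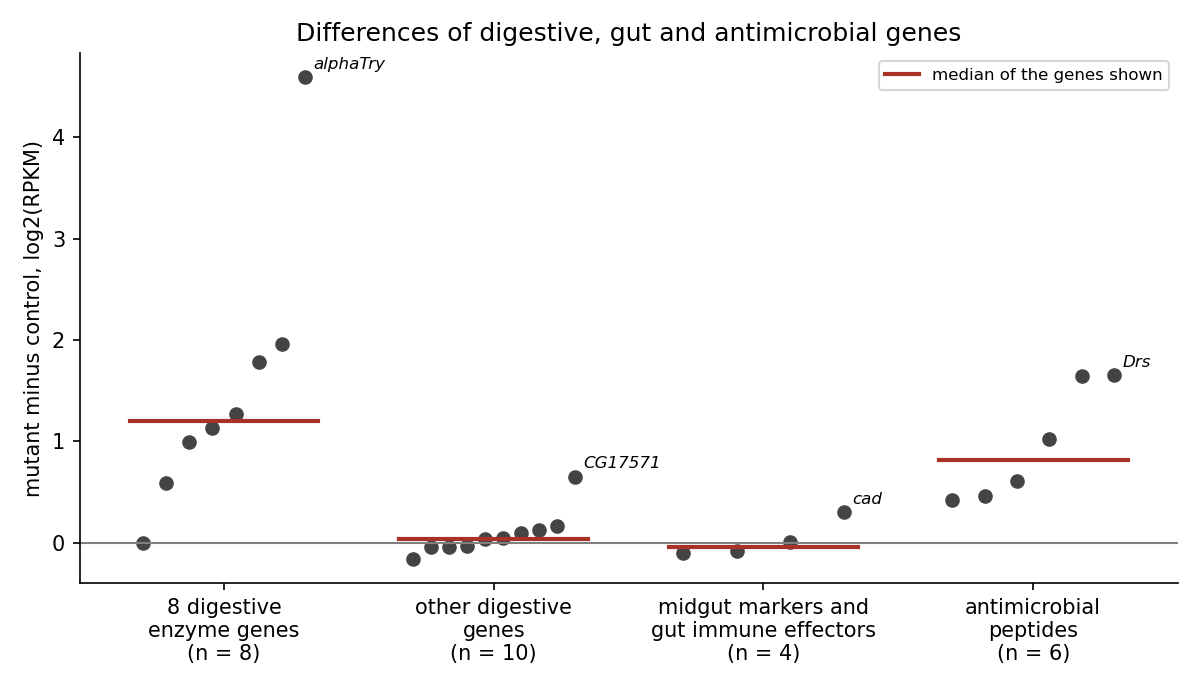
Difference in log2(RPKM), mutant minus control mean, for single genes (points) of 4 groups: the 8 digestive enzyme genes, the 10 other digestive genes measured, the 3 midgut markers with Irc, and the 6 antimicrobial peptide genes measured; red bars are medians and the gene with the highest difference in each group is named. The other genes listed as digestive lie between -0.16 and 0.65, below alphaTry at 4.59. Whether they are gut genes was not tested.

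Antimicrobial peptide genes, effectors of humoral immunity that gut, fat body and other epithelia make, held 2 called genes of 6 measured, both higher in the mutant. Of 14 listed, 6 were measured, each with a difference above 0, as in 51.3% of all genes, and with a median difference of 0.82. In 4 of them both mutant libraries were above both control libraries, as in 26.2% of all genes. For CecA1 this was by a hair, with control replicate 1 and mutant replicate 1 both at 3.66. The list was chosen with earlier results of these data known. The called genes were Drs and Dro, where 1.5% of all genes were called by limma. Drs stood at a log2(RPKM) of 4.39 and 3.93 in control replicates 1 and 2 and at 5.80 and 5.82 in mutant replicates 1 and 2, a difference of 1.65 (SE 0.15, limma adjusted p = 0.0167). Dro rose by 1.02 (SE 0.11, limma adjusted p = 0.027), AttC differed by 1.65 without a call (limma adjusted p = 0.115), and CecA1, AttB and CecA2 by 0.42, 0.46 and 0.61. With mutant replicate 2 left out 0 of the 6 were called, and without control replicate 2 it was 1; without control replicate 1 Dro lost its call and AttC gained one (limma adjusted p = 0.0882 and 0.0174). Mutant replicate 2 was above mutant replicate 1 for 6 of 6 peptides, with a median gap of 0.40. The same held for 8 of 8 enzymes (median 0.97) and for 41.8% of all genes. In the controls the medians of peptides and enzymes had opposite signs. Control replicate 2 minus control replicate 1 had a median of -0.53 for the peptides and 0.33 for the enzymes. Among the enzymes LysD and LysE went the way of the peptides, at -0.10 and -0.13. Whether peptides and enzymes differ was not tested.

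Among listed genes of fat body, accessory gland and the ejaculatory duct and bulb, limma called 1 of 2, 1 of 22 and 0 of 5 measured. It called 1.5% of all genes. The fat body gene Adh, which encodes alcohol dehydrogenase, rose from 3.43 ± 0.10 to 4.30 ± 0.12 (SD, n = 2 each; limma adjusted p = 0.0251), a call that was lost without either control replicate or without mutant replicate 2; regucalcin differed by 0.28 without a call, and 8 of 10 fat body markers are not in the table. Of 23 accessory gland markers 22 were measured, and SP, the sex peptide gene, was the only one called in limma, falling by 0.75 (SE 0.09, adjusted p = 0.0314; not called without either control replicate). Acp76A, which was called without mutant replicate 1 (limma adjusted p = 0.0393), and lectin-46Cb differed by 0.66 and -0.45. For 21 of these 22 mutant replicate 2 was above mutant replicate 1, against 41.8% of all genes, with a median gap of 0.32. The difference between genotypes was above 0 for 12 of the 22, against 51.3% of all genes, with a median of 0.013. Their summed RPKM, to which abundant genes such as SP add most, was 5964 and 6097 in control and 4873 and 5788 in mutant libraries. The ejaculatory bulb gene Peb had a log2(RPKM) of 5.55 and 2.23 in the controls and of 1.79 and 1.03 in the mutants, with no call (limma adjusted p = 0.299); without control replicate 2 its difference was -4.14 and was called (limma adjusted p = 0.0175). Among the other 4 duct and bulb genes measured, PebIII and Est-6 differed by -0.41 and 0.57. Summed RPKM of the duct and bulb markers was 1203 and 757 in control and 949 and 989 in mutant libraries.

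Muscle and blood cell markers gave 0 calls in limma, which called 1.5% of all genes. At an unadjusted p under 0.05 were 0 of 4 and 1 of 2 measured genes, against 1331 of all 7539 genes. The muscle genes Mlc2, Act57B and Mlc1 differed by 0.08, 0.09 and -0.06, and their list summed to 157 and 154 RPKM in control and 160 and 157 RPKM in mutant libraries. The hemocyte genes PPO2 and crq differed by 0.53 and 0.02, and the pair summed to 9.80 and 7.85 RPKM in control and 10.8 and 10.9 RPKM in mutant libraries. Of the lists with measured members, 8 of 12 muscle markers and 6 of 8 hemocyte markers are not in the table. The part of any of these tissues in the enzyme values was not tested.

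The genes whose pattern over the 4 libraries was most like the mean pattern of the enzymes were CG13323, CG13309, CG43694, CG15742, CG2941 and the microRNA gene mir-4948. Likeness was the root mean square distance between profiles centred on their own mean. The distance was 0.20 for CG13323 and 0.21 for CG13309, against 0.21 to 0.29 for the single maltases and amylases, and 0.31 to 0.36 for the other 4. CG13323 stood at a log2(RPKM) of 2.34 and 2.62 in control replicates 1 and 2 and at 3.28 in mutant replicate 1, with a mutant mean of 3.64 ± 0.51 (SD, n = 2), and CG13309 stood at 1.76 and 2.61 and at 3.39 and 4.34. Both had the library order seen for most of the enzymes, which their choice by likeness favours. CG15742 and CG2941 instead had mutant libraries that differed by 0.01 and -0.01, unlike the enzymes. alphaTry and LysE lay farthest from the mean pattern of the 8, at 1.53 and 0.82. A likeness over 4 libraries is a description of these libraries.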

How the data were processed

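RNA-seq of testes from 2 mutant and 2 control libraries was used; the small RNA libraries of the series hold no digestive enzyme genes and were not used here. The values are log2(RPKM) as deposited, 1 per gene and library, beside marks for predicted miR-313 targets, per the file headers. The submitters' processing notes name TopHat; version, read counter, strand setting and build are not stated there. Sorted columns differed by at most 0.044, the pattern quantile normalization leaves, so depth is unknown and values behave like ranks; all values were at least 1.00. The name table held 7408 of the gene IDs. RefSeq Release 6 was used for names and neighbours only.

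The 8 genes and all lists were chosen with earlier results of these data known. All 7539 genes were fitted with limma 3.58.1 (R 4.3.3; genotype only, moderated variances with a trend) without a pseudocount; a minimum mean log2(RPKM) of 0 removed 0 genes. Genes with a Benjamini-Hochberg adjusted p under 0.05 were called: 113, 41 higher and 72 lower in the mutant. The fit was tested on simulated data. Named were all 8 genes, up to 3 genes per list with the smallest p plus every called gene, the 6 most alike profiles and, by a choice made after their values were seen, the neighbours and the remaining genes of the gut and peptide lists. Alternatives were a replicate block, log2(RPKM + 1), a minimum mean of 2, median centring, no variance trend and leaving out each library. The planned comparison of protein and promoter sequences was not made.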

Additional observations from a re-analysis of the deposited data

How the results depend on the processing

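The number of genes called by limma in the whole table was 113, and 22 to 99 when 1 library was left out: 22 without control replicate 1, 34 without control replicate 2, 99 without mutant replicate 1 and 26 without mutant replicate 2. With the replicate number as a block it was 238. The numbers are not shown to pair libraries: with 2 pairs, deviations from the group means correlated at 0.06 over all genes and at 0.74 over the 8 enzyme genes. The block changed no count of the other digestive genes or midgut markers (0 called), while the antimicrobial peptides went from 2 to 3. With the block limma also called AttC, Acp76A and the testis marker janB (adjusted p 0.0335, 0.0292 and 0.00518), none of which passed without it. Leaving out 1 library gave 0 to 2 called peptides, and 0 to 0 other digestive genes and midgut markers. The median difference of the 8 enzyme genes was 1.20 and ranged from 0.65 (without mutant replicate 2) to 1.90 (without mutant replicate 1). Over the same fits the difference was 4.24 to 4.95 for alphaTry, 0.52 to 2.03 for Mal-A1, 0.49 to 1.77 for Mal-A6, 1.29 to 2.64 for Amy-p, 1.17 to 2.41 for Amy-d, 0.38 to 0.80 for LysB, 0.78 to 1.21 for LysD and -0.14 to 0.14 for LysE. LysE also changed sign after median centring (0.0045). The other settings moved each enzyme by less than its SD pooled over both genotypes; a minimum mean of 2 left out Mal-A6. The RNA-seq depth is unknown, and Amy-d and Mal-A6 in control replicate 1 lie close to the lowest value of the table.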
